A study of Rattus norvegicus with 12 samples.

Results

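The 10 genes described here are markers of 4 cell lineages, read in cells kept in high glucose with or without resveratrol and a sirtuin inhibitor. The epithelial markers are KRT8 (ENSG00000170421), KRT18 (ENSG00000111057), EPCAM (ENSG00000119888) and CDH1 (ENSG00000039068). The mesenchymal markers are CDH2 (ENSG00000170558) and VIM (ENSG00000026025). The endothelial markers are PECAM1 (ENSG00000261371), CDH5 (ENSG00000179776) and VWF (ENSG00000110799), and the leukocyte marker is PTPRC (ENSG00000081237). Members were looked up by identifier from a fixed list that sets no threshold on their values, although the list was drawn up with earlier results of these data known. All 10 are among the 20263 genes of each full deposited table. The questions were which lineage the libraries resemble by these markers, and whether treatment moved them.

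RNA was sequenced as 150 bp pairs in libraries labelled H9C2, a rat line first grown from embryonic heart, which the labels call cardiomyocytes and wild type. HG-Res-SIRT7-Inh cells were kept in 100 mM glucose with 5 µM resveratrol and 5 µM of SirReal2, which the labels call a SIRT7 inhibitor and suppliers usually list as acting on SIRT2. HG-Res cells had 100 mM glucose and 5 µM resveratrol, a plant polyphenol often used to activate sirtuins, and HG cells had 100 mM glucose alone. All groups were held for 48 h and have 3 biological replicates each, with no vehicle, osmotic control or inhibitor-alone group described. For the normal glucose group (Ctrl, 5.5 mM glucose) the authors' deposited table against HG lists 354 genes, each of which had an unadjusted p-value under 0.05 and a fold change over 1.5. None of the markers, 0 of 10, is among them, so no Ctrl value of a marker was analysed here.

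The gene identifiers are human Ensembl identifiers, while the labels give rat cells and the build rn6. The files do not settle whether rat or human transcripts were counted, and the names used here are those of the human identifiers. No table used here pairs the other identifiers with symbols, so cardiac muscle markers, which would test the label directly, and further lineage genes were not analysed here.

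Lineage markers work because cell types build their cytoskeleton and their contacts from different members of the same families. Keratins 8 and 18 pair to form the filaments of simple epithelia, vimentin forms those of mesenchymal cells, and both can occur together in cultured cells. E-cadherin, N-cadherin and VE-cadherin, the products of CDH1, CDH2 and CDH5, hold together epithelial cells, mesenchymal and cardiac muscle cells, and endothelial cells. PTPRC encodes CD45, a phosphatase on the surface of leukocytes.

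Levels are in CPM, the reads of a gene per 1000000 reads of its library, with no scaling for gene length. A gene can therefore be compared between libraries, while the levels of 2 genes cannot be ranked. The depth recovered from the values was 30.29 to 33.17 M reads per library. At this depth 3 reads, the floor at or below which a gene was not counted as present, were worth 0.09 to 0.099 CPM. HG-Res-SIRT7-Inh replicate 3 and HG replicate 2 lay at opposite ends of the first principal component of all tested genes, at 50.7 and -29.7, with the other libraries between -14.4 and 17.1, and both are referred to here as the outlying libraries. This component carried 56.1% of the variance. The median SD between replicates on the log2 scale was 0.242 in HG-Res-SIRT7-Inh, 0.071 in HG-Res and 0.132 in HG.

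By these markers the libraries held reads of both filament systems and of N-cadherin, with E-cadherin and the endothelial and leukocyte genes under 1 CPM. KRT8, KRT18, EPCAM, CDH2 and VIM were each at 1 CPM or more in all 9 libraries. VIM took 0.358% to 0.479% of all reads, KRT18 0.0538% to 0.0979% and KRT8 0.00856% to 0.0129%. PECAM1, VWF and PTPRC stayed under 1 CPM everywhere, with 10 to 32, 4 to 19 and 5 to 18 reads. CDH1 had 3 to 9 reads and CDH5 0 to 6. In all, 8 of the 10 markers had more than 3 reads in every library, and so did 64.6% of all listed genes. At this depth a few cells of another lineage and a low level in every cell cannot be told apart in bulk RNA, nor can fewer cells of a type and less RNA per cell.

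KRT8 and KRT18, the keratin pair of simple epithelia, were present in every library. KRT8 was at 129.33, 119.59 and 85.57 CPM in HG-Res-SIRT7-Inh, at 116.77, 119.33 and 115.55 CPM in HG-Res, and at 101.11, 111.5 and 97.66 CPM in HG. The HG-Res values were all above the HG values, and the HG-Res-SIRT7-Inh values spread over both groups, with replicate 3 the lowest of the 9 libraries. KRT18 was at 782.38, 725.38 and 537.68 CPM in HG-Res-SIRT7-Inh, at 925.2, 978.88 and 938.65 CPM in HG-Res, and at 734.82, 804.72 and 712.26 CPM in HG. All 3 HG-Res libraries were above the other 6, and HG-Res-SIRT7-Inh replicate 3 was again the lowest. Both keratins have many processed pseudogenes in the human genome, and how the authors' counting assigned reads shared with them is not given in the sources used here.

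VIM, the filament gene of mesenchymal cells, was present in every library and ordered the groups without overlap. It was at 3581.94, 3762.97 and 3927.15 CPM in HG-Res-SIRT7-Inh, at 4789.7, 4653.22 and 4621.5 CPM in HG-Res, and at 4331.67, 4431.86 and 4345.91 CPM in HG. HG-Res libraries were the highest and HG-Res-SIRT7-Inh libraries the lowest. Between 2 groups 28.1% to 33.7% of all tested genes did not overlap. The share of genes that separate all 3 groups, as VIM and CDH2 do, was not counted.

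CDH2, which encodes N-cadherin, also ordered the groups without overlap, but in another order. It was at 65.21, 69.54 and 64.47 CPM in HG-Res-SIRT7-Inh, at 53.09, 53.94 and 51.68 CPM in HG-Res, and at 45.27, 35.67 and 49.02 CPM in HG. HG replicate 2 was the lowest library. CDH1, which encodes E-cadherin, had 4, 8 and 6 reads in HG-Res-SIRT7-Inh, 5, 6 and 7 reads in HG-Res, and 9, 3 and 8 reads in HG. These counts overlapped in every comparison, and no shift between the 2 cadherins could be read from the CDH1 side at this depth.

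EPCAM, an adhesion glycoprotein of epithelial cells, was low and varied between replicates. It was at 1.75, 2.31 and 3.76 CPM in HG-Res-SIRT7-Inh, at 2.48, 1.87 and 2.76 CPM in HG-Res, and at 1.1, 1.45 and 1.83 CPM in HG. The HG-Res values were all above the HG values, narrowly so for the closest pair. HG-Res-SIRT7-Inh replicate 3, the lowest library for both keratins, was the highest for EPCAM.

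**Figure D1:**
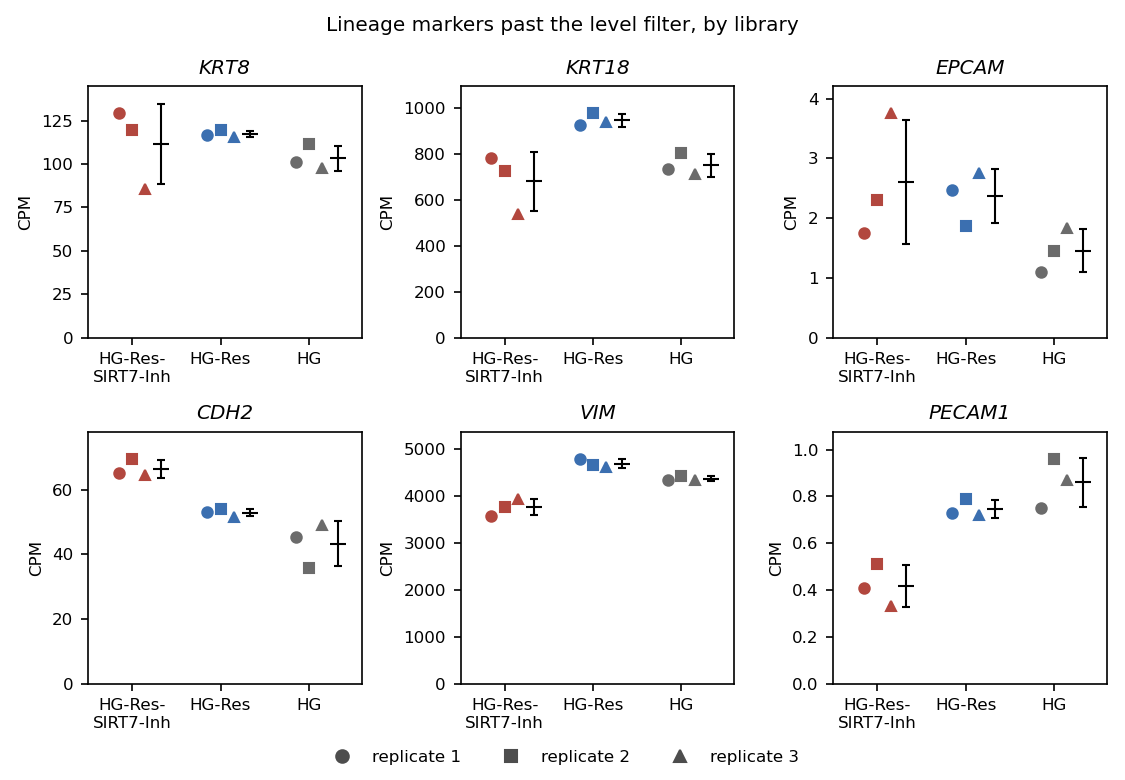
CPM of the 6 markers that passed the level filter, by library (shape gives the replicate; bars give mean and SD, n = 3). VIM and CDH2 each separate the 3 groups, in different orders, while HG-Res-SIRT7-Inh replicate 3 stands low for KRT8 and KRT18 and high for EPCAM. The share of all genes that separate the 3 groups was not counted.

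The endothelial genes were sparse. PECAM1, which encodes the junction protein CD31, had 13, 16 and 10 reads in HG-Res-SIRT7-Inh, 23, 25 and 23 reads in HG-Res, and 24, 32 and 27 reads in HG. All HG-Res-SIRT7-Inh libraries were below the other 6. VWF, the clotting glycoprotein that endothelial cells store and secrete, had 9, 11 and 4 reads in HG-Res-SIRT7-Inh, 12, 16 and 19 reads in HG-Res, and 10, 13 and 11 reads in HG. CDH5 had 6, 2 and 1 reads in HG-Res-SIRT7-Inh, 2, 0 and 1 reads in HG-Res, and 2, 1 and 4 reads in HG. The 0 in HG-Res replicate 2 allows a level of up to 0.095 CPM, and only 2 of the 9 libraries had more than 3 reads. Summed over the 3 endothelial genes, the libraries held 15 to 29 reads in HG-Res-SIRT7-Inh, 37 to 43 in HG-Res and 36 to 46 in HG.

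PTPRC, the leukocyte marker, had 8, 5 and 7 reads in HG-Res-SIRT7-Inh, 16, 12 and 6 reads in HG-Res, and 18, 15 and 13 reads in HG. The HG-Res-SIRT7-Inh counts were all below the HG counts, and the HG-Res counts spread over both.

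**Figure D2:**
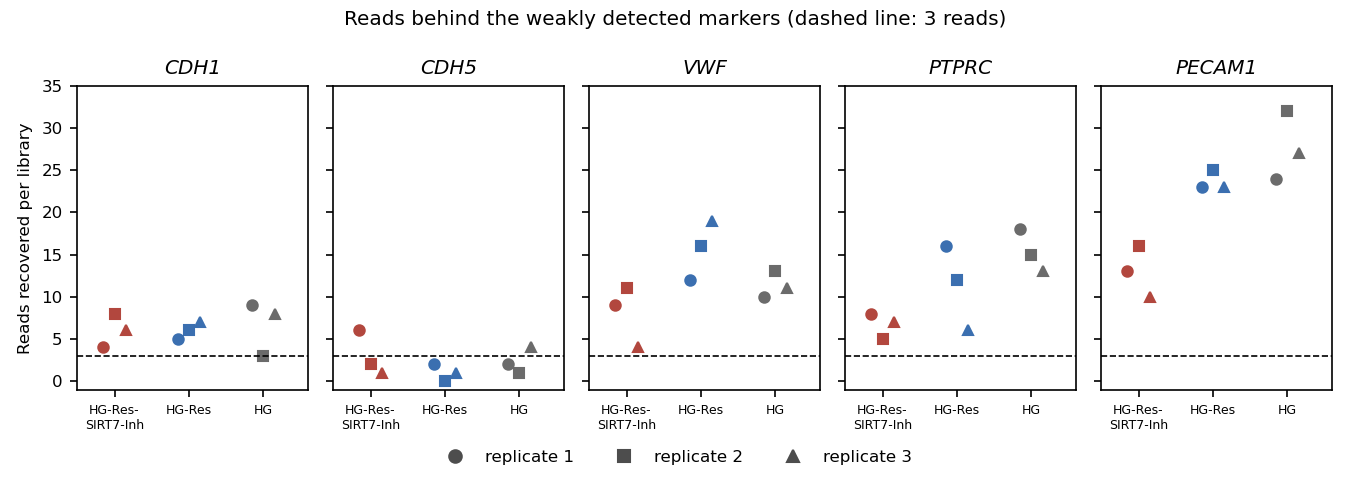
Reads recovered per library for the 5 weakly detected markers, with a dashed line at the floor of 3 reads. CDH1 and CDH5 stay at 9 reads or fewer, and PECAM1 has 10 to 16 reads in HG-Res-SIRT7-Inh against 23 to 25 in HG-Res and 24 to 32 in HG.

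Changes were estimated with limma on log2(CPM + 1), fitted to all 9 high-glucose libraries, with Benjamini-Hochberg adjustment over the 12854 genes that reached 0.5 CPM in at least 3 libraries. KRT8, KRT18, EPCAM, CDH2, VIM and PECAM1 passed this filter, PECAM1 through HG and HG-Res with 1 HG-Res-SIRT7-Inh library, and CDH1, CDH5, VWF and PTPRC did not. Fold changes on this scale understate the change of low genes such as PECAM1 and EPCAM. The 3 comparisons share libraries in pairs, so their estimates are not independent. The outlying libraries were named from these same data, and leaving both out raised the share of all tested genes that passed. The share went from 10.8% to 31% in HG-Res-SIRT7-Inh against HG and from 6.07% to 18.8% in HG-Res-SIRT7-Inh against HG-Res. In HG-Res against HG it went from 0.708% to 21.2%. Markers that passed under this setting are to be read beside these shares.

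The comparison of HG-Res-SIRT7-Inh with HG asked what both compounds together changed in high glucose. CDH2 rose and PECAM1 fell, and the other 4 tested markers did not pass the test. CDH2 averaged 66.4 ± 2.74 CPM in HG-Res-SIRT7-Inh and 43.3 ± 6.89 CPM in HG (SD, n = 3 each), a log2 change of 0.62 ± 0.12 SE with a limma adjusted p = 0.0137. This is 1.53-fold, and 93.1% of tested genes changed less in either direction. PECAM1 averaged 0.417 ± 0.0902 CPM in HG-Res-SIRT7-Inh and 0.86 ± 0.105 CPM in HG (SD, n = 3 each), a log2 change of -0.39 ± 0.09 SE with a limma adjusted p = 0.0261. Its change was -0.90 with a pseudocount of 0.1 and -1.03 with voom, and PECAM1 passed in both. The PECAM1 call rests on 10 to 16 reads per library in HG-Res-SIRT7-Inh against 24 to 32 in HG. It also rests on a filter passed mainly through HG and HG-Res, and a filter at 1 CPM removed the gene. Of all tested genes, 10.8% passed the same test, 4.27% higher and 6.5% lower, so calls were common in this comparison. Among the 6 tested markers, values were higher without overlap for CDH2 and lower for VIM and PECAM1, 3 of 6, against 28.1% of all tested genes (12.8% higher and 15.3% lower). PTPRC, below the filter and so outside these shares, was also lower without overlap, at 5 to 8 reads against 13 to 18. With a filter at 0.1 CPM it was tested and did not pass (limma adjusted p = 0.0899).

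VIM was lower without overlap between these groups, with a log2 change of -0.22 ± 0.06 SE that did not pass (limma adjusted p = 0.0549). It passed with a filter at 1 CPM (limma adjusted p = 0.047), with a pseudocount of 0.1 (0.0467), with both outlying libraries left out (0.0103) and with HG-Res-SIRT7-Inh replicate 3 alone left out (0.00734). EPCAM had a log2 change of 0.52 (95% interval 0.07 to 0.98, limma adjusted p = 0.127), and passed without HG-Res-SIRT7-Inh replicate 1 (limma adjusted p = 0.0416). KRT8 and KRT18 had log2 changes of 0.09 (95% interval -0.24 to 0.42) and -0.15 (95% interval -0.45 to 0.14), with limma adjusted p = 0.72 and 0.465. Both keratin estimates depended on single HG-Res-SIRT7-Inh libraries. Without replicate 1 KRT8 had a log2 change of -0.03 (limma adjusted p = 0.896) and KRT18 one of -0.26 (limma adjusted p = 0.163). Without replicate 3 KRT8 had a log2 change of 0.27 and passed the test (limma adjusted p = 0.0433), and KRT18 had one of 0.01 (limma adjusted p = 0.953). With both outlying libraries left out KRT8 had a log2 change of 0.32 (limma adjusted p = 0.00663) and KRT18 one of 0.06 (limma adjusted p = 0.517).

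In the authors' deposited table CDH2 and PECAM1 also had q-values under 0.05, at 0.012 and 0.0124, with log2 fold changes of 0.60 and -1.08. That table gave such a q-value to 5.2% of its genes. The authors' deposited table also marked EPCAM up (q = 0.177) and PTPRC down (q = 0.0676), a mark that rests on the unadjusted p-value. CDH2 did not pass once HG-Res-SIRT7-Inh replicate 2 was left out (limma adjusted p = 0.0617), nor did PECAM1 without HG replicate 1, 2 or 3 (limma adjusted p = 0.0603, 0.101 and 0.0723). With the 2 groups alone in the fit neither passed (limma adjusted p = 0.0808 for CDH2 and 0.0968 for PECAM1), and 3.27% of all tested genes did. With both outlying libraries left out PECAM1 did not pass (limma adjusted p = 0.0687) while CDH2 did.

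The comparison of HG-Res-SIRT7-Inh with HG-Res asked for the effect of adding the inhibitor to resveratrol. VIM fell, averaging 3757 ± 173 CPM in HG-Res-SIRT7-Inh and 4688 ± 89.4 CPM in HG-Res (SD, n = 3 each), a log2 change of -0.32 ± 0.06 SE with a limma adjusted p = 0.0181. This level was 0.801 times that in HG-Res, and 69.1% of tested genes changed less. KRT18 averaged 682 ± 128 CPM in HG-Res-SIRT7-Inh and 948 ± 27.9 CPM in HG-Res, a log2 change of -0.49 ± 0.13 SE that missed the threshold (limma adjusted p = 0.06). Its 3 libraries were all below those of HG-Res. Of all tested genes 6.07% passed, 1.88% higher and 4.19% lower. Among the 6 tested markers, values were higher without overlap for CDH2 and lower for KRT18, VIM and PECAM1, 4 of 6, against 33.7% of all tested genes (17.7% higher and 16% lower).

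CDH2 was higher without overlap, with a log2 change of 0.32 (95% interval 0.05 to 0.60, limma adjusted p = 0.153), and passed with both outlying libraries left out (limma adjusted p = 0.00844). PECAM1 was lower without overlap, with a log2 change of -0.30 (95% interval -0.51 to -0.10, limma adjusted p = 0.0844), and passed with no filter (limma adjusted p = 0.0405). KRT8 had a log2 change of -0.09 (95% interval -0.42 to 0.24, limma adjusted p = 0.684) and EPCAM one of 0.07 (95% interval -0.38 to 0.52, limma adjusted p = 0.834). The signs of both depended on single libraries: without HG-Res-SIRT7-Inh replicate 3 the log2 changes were 0.08 for KRT8 and -0.15 for EPCAM, and without HG-Res replicate 2 that of EPCAM was -0.04. VWF, below the filter, was also lower without overlap in reads, and the authors' deposited table marked it and PECAM1 down (q = 0.0947 and 0.0582). With a filter at 0.1 CPM VWF was tested and did not pass (limma adjusted p = 0.126).

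The VIM call was close to the threshold. It did not hold without HG-Res-SIRT7-Inh replicate 2 (limma adjusted p = 0.0635), without HG-Res replicate 1, 2 or 3 (0.0945, 0.0922 and 0.0798), with the 2 groups alone (0.078), without an intensity trend (0.0614) and without a filter (0.272), and its q-value in the authors' deposited table was 0.0514. KRT18 passed without HG-Res-SIRT7-Inh replicate 1 or 3 (limma adjusted p = 0.0244 and 0.0246), with both outlying libraries left out (0.00524), under median-of-ratios scaling (0.0436) and in the authors' deposited table (q = 0.0311), where 5.65% of genes had a q-value under 0.05.

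The comparison of HG-Res with HG asked what resveratrol changed in high glucose. No tested marker passed limma's adjusted p of 0.05, 0 of 6, and voom called 0. At an unadjusted p under 0.05 there were 3, KRT18, EPCAM and CDH2, where 10.7% of all tested genes were. The q-values in the authors' deposited table called KRT18, 1 of the 10 markers, and 5.38% of all genes. Of all tested genes 0.708% passed the adjusted test, 0.327% higher and 0.381% lower. Values were higher in HG-Res without overlap for 5 of the 6 tested markers, KRT8, KRT18, EPCAM, CDH2 and VIM, and lower without overlap for 0 of 6. Among all tested genes 29.9% did not overlap, 15% higher and 14.8% lower. The fit pools the spread of all 3 groups, so that of HG-Res-SIRT7-Inh also enters this comparison. Its median SD was 0.242, against 0.071 in HG-Res and 0.132 in HG. With HG-Res and HG alone in the fit 1 marker passed, KRT18, and 4.64% of all tested genes did.

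KRT18 averaged 948 ± 27.9 CPM in HG-Res and 751 ± 48.2 CPM in HG (SD, n = 3 each), a log2 change of 0.34 ± 0.13 SE with a limma adjusted p = 0.387. It passed with the 2 groups alone in the fit (limma adjusted p = 0.0332), without HG-Res-SIRT7-Inh replicate 3 (0.0225), with both outlying libraries left out (0.00436) and in the authors' deposited table (q = 0.0064). EPCAM averaged 2.37 ± 0.455 CPM in HG-Res and 1.46 ± 0.365 CPM in HG, a log2 change of 0.46 ± 0.20 SE with a limma adjusted p = 0.463. Its change was 0.67 with a pseudocount of 0.1 and 0.71 with voom, and EPCAM passed in neither. The authors' deposited table marked EPCAM up (log2 fold change 0.71, q = 0.131), a mark that rests on the unadjusted p-value. CDH2 averaged 52.9 ± 1.14 CPM in HG-Res and 43.3 ± 6.89 CPM in HG, a log2 change of 0.29 ± 0.12 SE with a limma adjusted p = 0.43.

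KRT8 had a log2 change of 0.18 (95% interval -0.15 to 0.51, limma adjusted p = 0.758) and VIM one of 0.10 (95% interval -0.04 to 0.24, limma adjusted p = 0.652). With both outlying libraries left out KRT8 had a log2 change of 0.24 and passed (limma adjusted p = 0.0263), as did 21.2% of all tested genes. PECAM1 had a log2 change of -0.09 (95% interval -0.29 to 0.12, limma adjusted p = 0.828), and its reads overlapped.

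**Figure D3:**
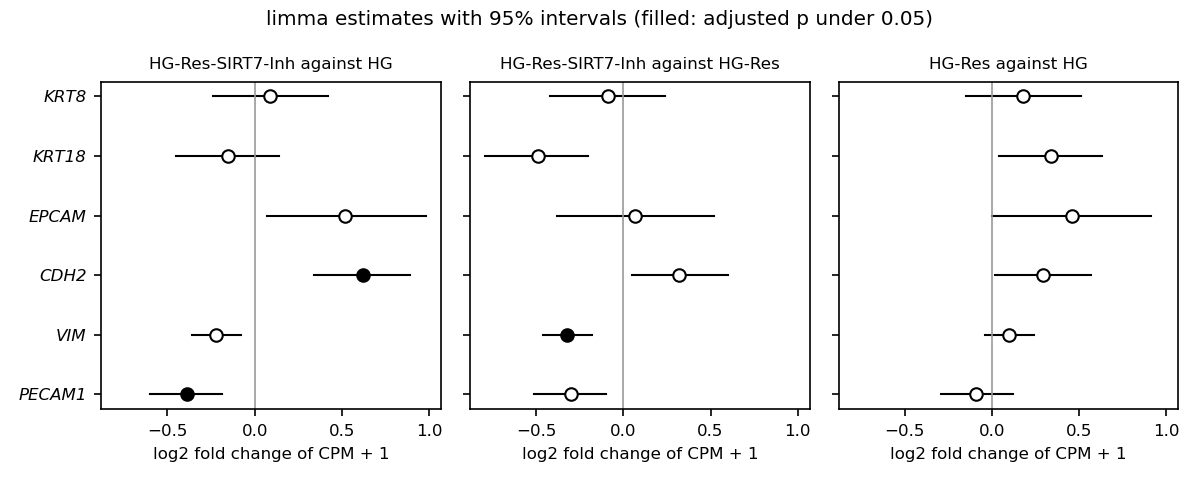
Log2 fold changes of the 6 tested markers with 95% intervals in 3 comparisons; filled points had a limma adjusted p under 0.05. CDH2 and PECAM1 in HG-Res-SIRT7-Inh against HG and VIM in HG-Res-SIRT7-Inh against HG-Res are filled, and none is in HG-Res against HG.

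Across the 6 tested markers the median log2 change was -0.03 in HG-Res-SIRT7-Inh against HG, -0.20 in HG-Res-SIRT7-Inh against HG-Res and 0.24 in HG-Res against HG. The medians of all tested genes were 0.04, 0.04 and 0. In HG-Res-SIRT7-Inh against HG, CDH2 rose and VIM, the other mesenchymal marker, had a negative log2 change. In HG-Res against HG the tested epithelial and mesenchymal markers all had positive log2 changes, from 0.10 for VIM to 0.46 for EPCAM. The epithelial markers summed to 627.21 to 913.59 CPM in HG-Res-SIRT7-Inh, 1044.61 to 1100.27 CPM in HG-Res and 812.01 to 917.76 CPM in HG, a sum carried by KRT18. The mesenchymal markers summed to 3647.15 to 3991.62 CPM in HG-Res-SIRT7-Inh, 4673.18 to 4842.79 CPM in HG-Res and 4376.94 to 4467.53 CPM in HG, a sum carried by VIM. Both sums were higher in all 3 HG-Res libraries than in the other 6.

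Ratios between markers within a library do not depend on how libraries are scaled. They were chosen after their values were seen and are given without a test. KRT18 reads per KRT8 read were 6.05, 6.07 and 6.28 in HG-Res-SIRT7-Inh, 7.92, 8.2 and 8.12 in HG-Res, and 7.27, 7.22 and 7.29 in HG. The groups did not overlap, and HG-Res-SIRT7-Inh replicate 3, low for both keratins, was close to its group in this ratio. VIM reads per CDH2 read were 54.93, 54.11 and 60.91 in HG-Res-SIRT7-Inh, 90.22, 86.26 and 89.43 in HG-Res, and 95.68, 124.25 and 88.65 in HG. The HG-Res-SIRT7-Inh libraries were below the other 6, and HG-Res and HG overlapped. VIM reads per KRT18 read were 4.58, 5.19 and 7.3 in HG-Res-SIRT7-Inh, 5.18, 4.75 and 4.92 in HG-Res, and 5.89, 5.51 and 6.1 in HG, with HG-Res-SIRT7-Inh spread over both other groups.

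**Figure D4:**
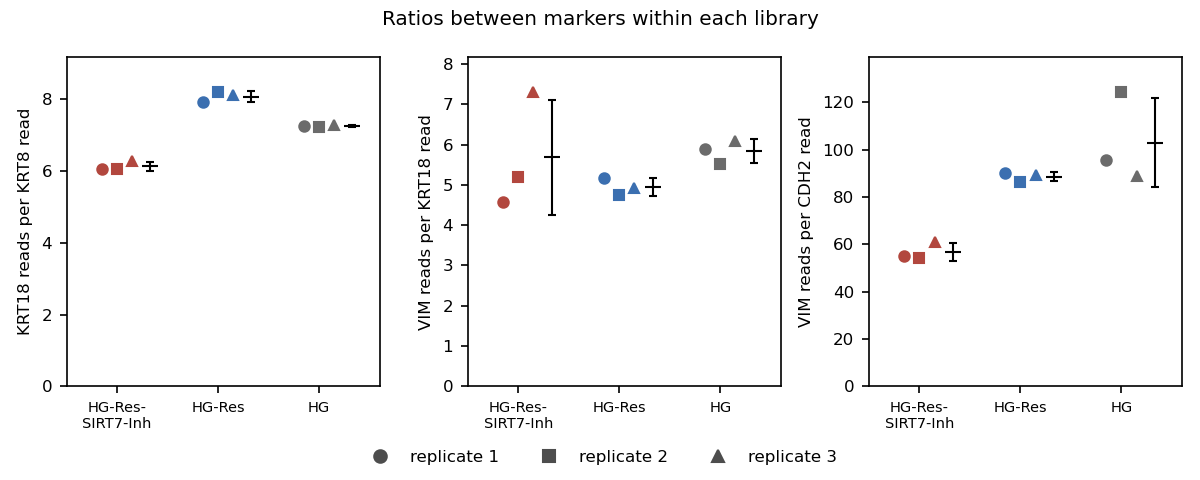
Ratios of reads between markers within each library, by group (shape gives the replicate; bars give mean and SD, n = 3). KRT18 per KRT8 separates the groups at 6.05 to 6.28, 7.92 to 8.2 and 7.22 to 7.29 for HG-Res-SIRT7-Inh, HG-Res and HG.

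The marker levels were also set beside the positions of the libraries on the first principal component. Within both HG-Res-SIRT7-Inh and HG, the library highest on this component had the lowest KRT8, the lowest KRT18 and the highest EPCAM. These were HG-Res-SIRT7-Inh replicate 3 at 50.7 and HG replicate 3 at 3.4. In HG-Res the highest library, replicate 1 at -8.2, had the lowest KRT18 but lay between the other two for KRT8 and EPCAM. HG replicate 2, at the other end, had the highest KRT8, KRT18 and PECAM1 and the lowest CDH2 of its group. The other tested markers did not go the same way in both groups. CDH2 was the lowest of its group in HG-Res-SIRT7-Inh replicate 3 but the highest of its group in HG replicate 3. VIM was the highest and PECAM1 the lowest of the group in HG-Res-SIRT7-Inh replicate 3. In HG replicate 3 both lay between the other libraries of the group. The part of this component in the differences between groups was not tested.

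**Figure D5:**
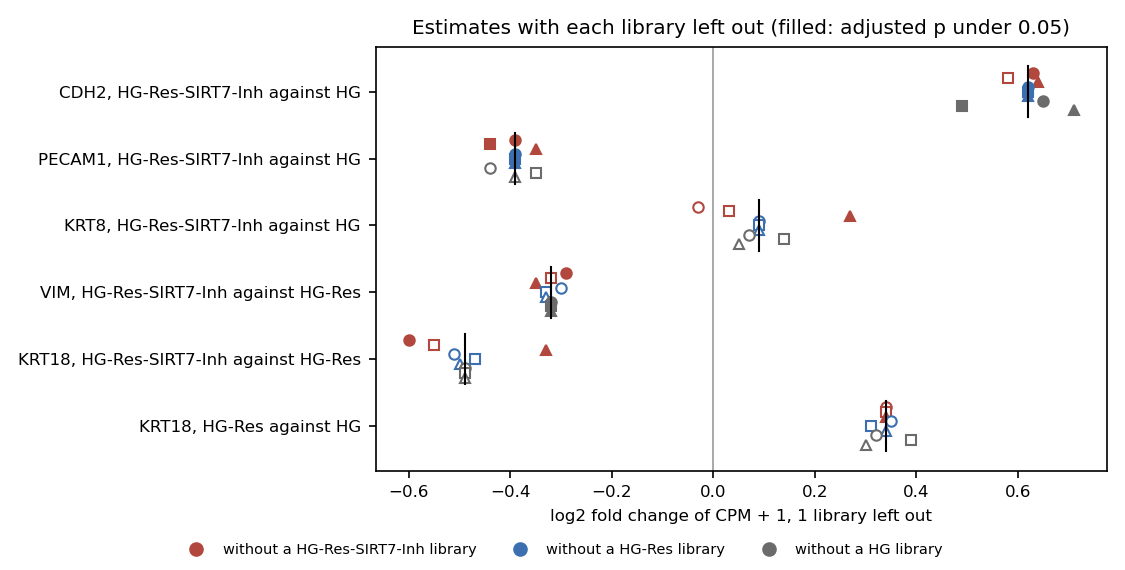
Log2 fold changes of 6 marker comparisons with each of the 9 libraries left out in turn; the colour gives the group of the library left out, the shape its replicate number, the black line the estimate from all libraries, and filled points a limma adjusted p under 0.05. KRT8 against HG and KRT18 against HG-Res move most in HG-Res-SIRT7-Inh without its replicate 3, to 0.27 and -0.33, and CDH2 in HG-Res-SIRT7-Inh against HG moves most without HG replicate 2, to 0.49.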

How the data were processed

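RNA was read as deposited gene tables of 12 libraries, of which the 9 high-glucose ones hold the markers. Per the submitters' processing notes, Trimmomatic and the build rn6 were used; the sources used here name no aligner, counter, annotation or test. The deposited value columns are headed TPM but behave as CPM: each sums to about 1000000, and every value is a whole number of reads at 1 depth per library within the rounding of 0.005 CPM (100% of values, against 33.9% to 37% of low values at a median other depth). The recovered reads sum to that depth exactly. They served depth, floors, ratios and voom, and no other test of the markers was run on the reads. The authors' log2 fold changes, p-values and q-values were taken from the deposited tables. Libraries shared by 2 tables had identical values.

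Genes with at least 0.5 CPM in 3 of 9 libraries were fitted as log2(CPM + 1) with limma 3.58.1 in R 4.3.3: group means, 1 fit over 3 groups, intensity trend. With 3 against 3 samples an exact permutation test of 1 gene cannot give a 2-sided p below 0.1, so none is reported. Replicate pairs differed by more than sampling noise (chi-square per degree of freedom 5.26 to 172.8), so none was merged. Floors cover counting error only. All 10 markers are named; genes most alike in pattern are not, since no symbols are paired with the other identifiers. The markers, lists and settings were chosen with earlier results of these data known.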

Additional observations from a re-analysis of the deposited data

How the results depend on the processing

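Each count of markers called was recomputed under 21 alternatives, 1 of which, a filter at 0.1 CPM, was chosen after seeing the data. The outlying libraries, left out together in another, were named from their positions in these same data. The share of all tested genes called under the same setting stands in brackets, since it moved as well. In HG-Res-SIRT7-Inh against HG the count of 2 (10.8%) dropped to 0 (3.27%) in the fit of 2 groups alone. It was 3 with a pseudocount of 0.1 (10.7%) and 3 with both outlying libraries left out (31%). With 1 library left out it ranged from 1 without HG-Res-SIRT7-Inh replicate 2 or any HG replicate (4.27% to 6.67%) to 4 without HG-Res-SIRT7-Inh replicate 3 (21.1%). In HG-Res-SIRT7-Inh against HG-Res the count of 1 (6.07%) was 2 under median-of-ratios scaling (6.32%), 3 with both outlying libraries (HG replicate 2, HG-Res-SIRT7-Inh replicate 3) left out (18.8%), 0 without an intensity trend (6.08%), 0 with the 2 groups alone (3.22%), and 0 to 2 with 1 library left out (2.15% to 13.8%). In HG-Res against HG the count of 0 (0.708%) was 1 in the fit of 2 groups alone (4.64%), 1 by the q-values in the authors' deposited table (5.38%), 2 with both outlying libraries left out (21.2%), and 0 to 1 with 1 library left out, the 1 being without HG-Res-SIRT7-Inh replicate 3 (6.23%). Where a count given here rose, the share of all genes called was also higher, except with a pseudocount of 0.1 (10.7% against 10.8%). Under median-of-ratios scaling the share was only slightly higher.

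With the replicate number as a block the counts were 2 (8.65%), 0 (5.05%) and 0 (0.35%) in the same order, and VIM had a limma adjusted p of 0.0538 in HG-Res-SIRT7-Inh against HG-Res. Same-numbered libraries had deviations correlated from -0.55 to 0.64, so the numbers were not taken to pair them. The cause of these changes was not tested.

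Signs reversed for uncalled changes of the keratins and EPCAM. In HG-Res-SIRT7-Inh against HG-Res, with both outlying libraries left out, KRT8 was at 0.08 and EPCAM at -0.15; with 1 library left out KRT8 ranged from -0.21 to 0.08 and EPCAM from -0.15 to 0.25. In HG-Res-SIRT7-Inh against HG, KRT18 was at 0.06 without both and ranged from -0.26 to 0.01, and KRT8 ranged from -0.03 to 0.27. Signs of CDH2, VIM and PECAM1 held under every alternative run in all 3 comparisons, 21 for CDH2 and VIM and 20 for PECAM1, which a filter at 1 CPM removed. Scaling moved the median of all genes by less than 0.1.

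The number of markers above the floor in every library (8) was 5 at 0.5 CPM, 5 at 1 CPM and 5 at 10 reads, and 8 to 9 with 1 library left out. With the filter at 0.1 CPM, VWF, PTPRC and CDH1 were tested and 0 passed (lowest limma adjusted p = 0.0899, PTPRC in HG-Res-SIRT7-Inh against HG). Depth limits what can be said of CDH1, CDH5, VWF and PTPRC.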
